A study of Mus musculus with 24 samples.

Results

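Transcripts of the urea cycle were examined in 4 tissues, liver, brain, heart and skeletal muscle, from mice with a mutant Rap1. The set was 9 genes, Nags, Cps1, Otc, Ass1, Asl, Arg1, Arg2, Slc25a15 and Glul, out of 21368 genes that could be named on the array. Members were found as probes whose accession pairs with these symbols, which gave 11 probes, because Otc and Ass1 had 2 probes each. Nags was chosen by its measured difference between genotypes in the mean of the 4 tissues, so its KI and WT values are given as a description with no test, and the other members were listed by their role in the pathway.

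RAP1, encoded by Terf2ip, is a telomeric protein that also acts in transcription away from telomeres, and the question of the study was what happens when it is released from telomeres. KI mice carried the I312R point mutation of Rap1, made by genome editing and crossed back to mice given as C57BL6 in the labels and as C57BL/6N in the study's methods, and the study describes homozygous KI mice compared with WT littermates. All 6 mice were female and gave all 4 tissues, so the 24 arrays (1 colour, Agilent) formed 8 groups of 3. The age was 15 months for KI mice A and B and WT mice D and E, and 14 months for C (KI) and F (WT). A level is the log2 processed signal of a probe with the 75th percentile of its array subtracted, so a difference of 1 is a doubling of signal. A spot was called well above background by the scanner program, which held for 49.4% to 68.4% of probes on an array. Levels were compared between samples for the same probe, never between probes.

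Some arrays carried transcripts of another tissue. In the brain of KI mouse C all 10 hepatocyte markers lay above the other 5 brains, 5 of 6 skeletal muscle fibre markers were highest, among livers, in that of the same mouse, and 5 of 6 markers of mammary epithelium were highest, among muscles, in that of KI mouse B. Hepatocyte markers were well above background in all 6 livers (10 of 10 markers), neuron markers in all 6 brains (7 of 7), cardiomyocyte markers in all 6 hearts (5 of 5) and skeletal muscle fibre markers in all 6 muscles (6 of 6). In whole tissues, fewer cells of a type and less RNA per cell cannot be told apart.

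The urea cycle turns ammonia into urea and runs as a complete cycle in hepatocytes, mainly those around the portal vein. NAGS makes N-acetylglutamate, the activator without which CPS1 is inactive. CPS1 and OTC work in mitochondria, ASS1, ASL and ARG1 in the cytosol, and the carrier SLC25A15 brings ornithine back into mitochondria. ARG2 is the mitochondrial arginase of tissues outside the liver, and GLUL, glutamine synthetase, binds the ammonia that escapes the cycle and is found in pericentral hepatocytes, astrocytes and muscle.

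Because members differ in how widely they were measured, the sequence before the transcription start is shown for Nags and Otc, which were high in liver and mostly at background elsewhere, and for Ass1 and Glul, which were well above background on all 24 arrays. Sequences are the 250 bases before the start in the RefSeq promoter table (build GRCm38.p6), written 5′ to 3′ along the gene, with capitals marking GGGCGG, called a GC box, on either strand.
Nags (chr11:102145263-102145512, + strand): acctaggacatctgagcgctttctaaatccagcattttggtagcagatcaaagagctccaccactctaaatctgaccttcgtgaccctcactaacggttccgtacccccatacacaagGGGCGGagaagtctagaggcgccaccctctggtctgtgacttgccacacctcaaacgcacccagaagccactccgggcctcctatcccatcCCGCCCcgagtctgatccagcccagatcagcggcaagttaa
Otc (chrX:10252055-10252304, + strand): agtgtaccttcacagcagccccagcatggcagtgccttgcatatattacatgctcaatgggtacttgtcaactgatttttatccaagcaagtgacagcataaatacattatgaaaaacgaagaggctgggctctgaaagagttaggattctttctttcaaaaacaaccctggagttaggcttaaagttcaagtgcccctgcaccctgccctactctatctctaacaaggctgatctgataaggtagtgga
Ass1 (chr2:31470020-31470269, + strand): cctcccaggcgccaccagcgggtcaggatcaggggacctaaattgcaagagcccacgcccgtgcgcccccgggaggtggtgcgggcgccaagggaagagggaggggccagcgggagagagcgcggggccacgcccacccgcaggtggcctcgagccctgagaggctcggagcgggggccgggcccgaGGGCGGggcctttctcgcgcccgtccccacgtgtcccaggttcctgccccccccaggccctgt
Glul (chr1:153899679-153899928, + strand): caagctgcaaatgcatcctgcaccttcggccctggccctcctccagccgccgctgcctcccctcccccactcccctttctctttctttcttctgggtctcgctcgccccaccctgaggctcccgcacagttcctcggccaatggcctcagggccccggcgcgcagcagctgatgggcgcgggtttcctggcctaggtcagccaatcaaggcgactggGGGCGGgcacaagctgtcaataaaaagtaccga
Entries for Slc25a15 were also found, and Cps1, Asl, Arg1 and Arg2 were not matched. The Nags window held 2 GC boxes, 132 and 41 bases before the start, the Ass1 window 1 at 63 bases and the Glul window 1 at 33 bases, whereas the Otc window held 0. For Slc25a15, 1 window held GC boxes at 44 and 9 bases, and another at 201, 146, 90, 12 and 8 bases. GGGCGG occurs in 32.7% of all 32851 windows of this length. On either strand TGACGTCA (cAMP response element, in 1.55% of windows), TTGCNNAA (C/EBP, 9.56%), AAAGTCCA (HNF4, 1.01%) and TATAAA (in 12.4%) matched in none of the windows of the 5 genes found. The G and C content was 43.6% for Otc, 55.6% for Nags, 64.8% for Glul and 75.6% for Ass1, and 57.6% and 80.4% for these windows of Slc25a15. These matches are letters only and were not set against binding.

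In WT mice the mean level was highest in liver for 8 members, Nags, Cps1, Otc, Ass1, Asl, Arg1, Slc25a15 and Glul, and in brain for Arg2. By limma, 7 of 9 members tested were higher and 1, Arg2, was lower in WT liver than in WT brain, against 42.3% and 37.9% of all genes tested. Against heart 8 of 8 members were higher in liver (34.9% of genes), and against muscle 8 of 8 (37.5%). In KI mice 8 of 9 members were higher and 1 was lower in liver than in brain (40.7% and 35.0% of genes), and 8 of 8 were higher than in heart (32.3%) and in muscle (34.7%). These counts are a description only. Nags, Cps1, Otc and Arg1 could be tested because they were well above background on all livers, while no other tissue of either genotype had all 3 arrays well above background, so a call for them could hardly be other than higher in liver. Arg2 was tested between liver and brain through brain alone, so a call for it could hardly be other than lower in liver. It was not tested between liver and heart or muscle. Slc25a15 was well above background on 2 of 3 WT hearts and 2 of 3 WT muscles. It thus entered the WT comparisons of liver with heart and with muscle through liver alone. Ass1, Asl and Glul were measured on every array. RNA of brain and liver and RNA of heart and muscle were extracted with different kits, all livers lay on 1 slide and all muscles on another, so these cannot be told apart fully from tissue.

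**Figure D1:**
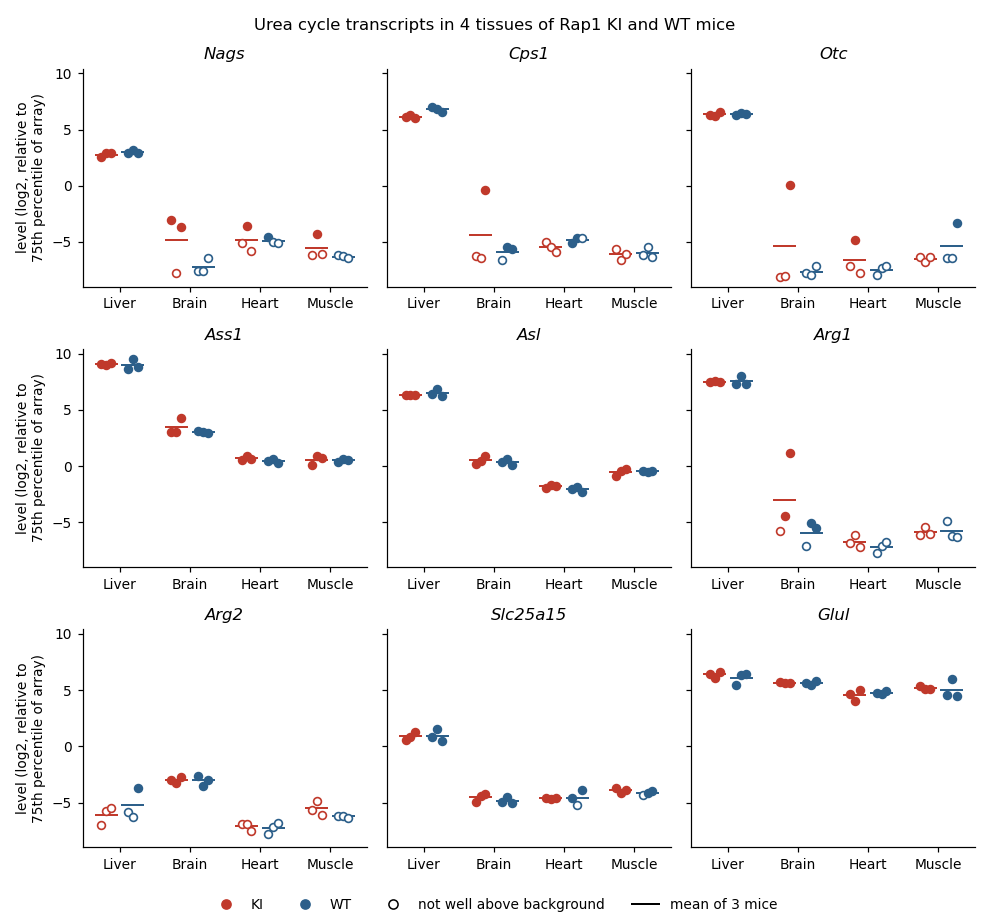
Level (log2, 75th percentile of each array set to 0, y axis) of the 9 members in the 4 tissues (x axis), 1 point per array, KI red and WT blue, open where the spot was not well above background, bars at means of 3 mice. Nags, Cps1, Otc and Arg1 were high in liver and mostly open elsewhere, Ass1 and Asl were measured in every tissue, Arg2 was filled on all arrays only in brain, and Glul was between 4.07 and 6.63 everywhere.

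Nags, the enzyme that makes the activator of the cycle, was well above background on 11 of 24 arrays, 6 of them livers. Its liver level was 2.52, 2.91 and 2.87 in KI mice A, B and C and 2.95, 3.14 and 2.95 in WT mice D, E and F. No WT brain and no WT muscle was well above background, so WT liver was at least 637-fold above WT brain and at least 155-fold above WT muscle. In WT heart, 1 of 3 arrays was well above background (mouse D, -4.58), and the liver minus heart difference was 7.90 (SE 0.28). In KI mice the difference of liver was 7.58 from brain (SE 1.09), 7.58 from heart and 8.27 from muscle. Nags entered these comparisons through its livers alone, so the direction was set beforehand and the differences are a description. These sizes rest in part on values near background, since Nags was measured on 2 of 3 KI brains, 1 of 3 KI hearts and 1 of 3 KI muscles. With the slide as a term, the KI differences were 4.42 for heart (adjusted p = 0.0935) and 4.16 for muscle (adjusted p = 0.206), no longer past the threshold.

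Cps1 encodes the enzyme that makes carbamoyl phosphate, the first step of the cycle. Its liver level was 6.10, 6.26 and 6.05 in KI mice A, B and C and 7.03, 6.87 and 6.53 in WT mice D, E and F, so every KI liver lay below every WT liver. It was at background in all 6 muscles and in all 3 KI hearts. WT liver was at least 2160-fold above WT muscle, and KI liver at least 2820-fold above KI heart and 1390-fold above KI muscle. Low levels from -5.61 to -4.67 were still well above background in 2 of 3 WT brains and 2 of 3 WT hearts. The WT liver minus brain difference, with 1 brain at background, was 12.70 (SE 0.34). Cps1 entered that comparison through liver alone, so this is a description.

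Otc, the enzyme that joins carbamoyl phosphate to ornithine, had liver levels of 6.27, 6.22 and 6.57 in KI mice A, B and C and 6.28, 6.46 and 6.42 in WT mice D, E and F. WT liver was at least 6600-fold above WT brain and at least 3210-fold above WT heart. Outside liver, 3 arrays were well above background, the brain of KI mouse C (0.09), the heart of KI mouse B (-4.85) and the muscle of WT mouse F (-3.35). These levels come from a probe with 1 spot per array. The other Otc probe, with 10 spots, was well above background in the brain of KI mouse C but not in that heart or that muscle. The 2 probes thus disagree there.

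Ass1 and Asl, which make argininosuccinate and split it into arginine and fumarate, were well above background on all 24 arrays. Ass1 had levels of 8.64, 9.54 and 8.78 in WT livers, 3.15, 3.00 and 2.96 in WT brains, 0.44, 0.62 and 0.30 in WT hearts and 0.34, 0.61 and 0.54 in WT muscles. Liver lay above brain by 5.95 (SE 0.21, adjusted p = 1.17e-09) and brain above heart by 2.58 (SE 0.21, adjusted p = 1.14e-06), whereas heart and muscle, the neighbours in this order, did not differ beyond their spread (difference -0.04, SE 0.21). Asl had levels of 6.45, 6.83 and 6.26 in WT livers, 0.32, 0.62 and 0.10 in WT brains, -0.44, -0.55 and -0.42 in WT muscles and -2.04, -1.88 and -2.33 in WT hearts. All neighbours in the order liver, brain, muscle, heart differed for Asl, by 6.17 (adjusted p = 4.19e-10), by 0.82 (adjusted p = 0.00221) and by 1.61 (adjusted p = 3.53e-05). With the slide as a term the step from brain to muscle was 0.45 (adjusted p = 0.311). KI mice gave the same order for Asl, with steps of 5.78, 1.07 and 1.24 (adjusted p at most 0.000844).

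Arg1, the liver arginase that releases urea, was at 7.48, 7.57 and 7.43 in KI livers and at 7.30, 8.03 and 7.31 in WT livers. It was at background in all hearts and muscles, and WT liver was at least 7180-fold above WT heart and 3600-fold above WT muscle (KI, 7660-fold and 3560-fold). In brain 2 of 3 WT arrays (E, -5.07 and F, -5.52) and 2 of 3 KI arrays (B, -4.43 and C, 1.17) were well above background.

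Arg2, the mitochondrial arginase, had its highest mean level in brain and was the member lower in liver than in brain. It was at -2.98, -3.29 and -2.76 in KI brains and at -2.61, -3.51 and -2.97 in WT brains. Outside brain only the liver of WT mouse F (-3.71) was well above background. KI brain was at least 3.68-fold above KI liver. The WT liver minus brain difference, with 1 of 3 livers measured, was -2.23 (SE 0.56). Arg2 entered that comparison through brain alone, so its direction was set beforehand. Without WT mouse D the difference was -1.75 and did not pass the threshold (adjusted p = 0.0704). Brain was at least 4.7-fold above heart and 2.35-fold above muscle in WT mice, and 5.29-fold and 2.45-fold in KI mice. The step from brain to muscle was not kept under the normexp background correction, with 0.26 in WT (adjusted p = 0.307) and -0.11 in KI mice (adjusted p = 0.628).

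Slc25a15, the ornithine carrier, was at 0.83, 1.54 and 0.51 in WT livers and 0.56, 0.86 and 1.26 in KI livers. It lay between -5.26 and -3.73 in the other tissues, where 2 arrays were not well above background. WT liver was higher than WT brain by 5.81 (SE 0.35, adjusted p = 5.82e-08). In WT mice the steps from brain to heart (-0.29) and from brain to muscle (-0.70, adjusted p = 0.0876) did not pass the threshold, and heart and muscle were not tested against each other. Without WT mouse E both passed (-0.79, adjusted p = 0.0412, and -0.83, adjusted p = 0.0326), as did the step to muscle under normexp (-1.31, adjusted p = 0.000281). In KI mice muscle was higher than heart by 0.71 (adjusted p = 0.0225) and than brain by 0.58 (adjusted p = 0.0381). The step from KI heart to KI muscle was lost without any 1 of mice A, B and C (adjusted p = 0.0782 to 0.0878). That from KI brain to KI muscle was lost likewise (adjusted p = 0.0529 to 0.309), and under quantile normalization (adjusted p = 0.202). Both were also lost with the slide as a term (adjusted p = 0.134 and 0.53), in the deposited scores (0.0812 and 0.178) and under z-scores within arrays (0.213 and 0.532). Under z-scores the KI brain minus muscle difference turned to 0.040.

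Glul was the most even member over tissues, with WT levels of 5.45, 6.35 and 6.42 in livers, of 5.62, 5.44 and 5.81 in brains, of 4.58, 6.03 and 4.43 in muscles and of 4.70, 4.66 and 4.88 in hearts. WT liver and WT brain overlapped and did not differ beyond their spread (0.45, SE 0.39, adjusted p = 0.309), and under quantile normalization the difference turned to -0.88 (adjusted p = 0.0355). WT liver was higher than WT heart by 1.33 (SE 0.39, adjusted p = 0.00959) and than WT muscle by 1.06 (SE 0.39, adjusted p = 0.0264). Both calls ended without WT mouse F, with 1.22 (adjusted p = 0.0708) and 0.60 (adjusted p = 0.314). Both also ended with the slide as a term (adjusted p = 0.177 and 0.329). The heart call ended under quantile normalization too (adjusted p = 0.052). The muscle call ended without WT mouse D (adjusted p = 0.0609), under z-scores within arrays (adjusted p = 0.0998) and in the deposited scores (adjusted p = 0.14). In KI mice the liver level of 6.44, 6.10 and 6.63 was above the brain level of 5.76, 5.59 and 5.62 by 0.73 (SE 0.23, adjusted p = 0.013). This call ended without mouse A or C (adjusted p = 0.0897 and 0.0959) and under the slide term (adjusted p = 0.0921). It also ended under z-scores within arrays (adjusted p = 0.0718) and in the deposited scores (adjusted p = 0.328). KI liver was higher than KI heart by 1.82 (SE 0.23, adjusted p = 3.8e-05) and than KI muscle by 1.21 (SE 0.23, adjusted p = 0.000604). Both of these KI calls stayed under every alternative. Whether the genotype effect on Glul differed between tissues was tested over all 24 arrays and did not pass the threshold (adjusted p = 1.00).

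Between brain, heart and muscle fewer members could be tested. In WT mice 3 of 5 members tested passed between brain and heart (75.4% of all genes), 3 of 5 between brain and muscle (78.3%) and 1 of 3, Asl, between heart and muscle (59.3%). In KI mice these were 4 of 5 (68.2%), 4 of 5 (72.9%) and 3 of 4 (50.3%). Arg2 was among the members that passed in every comparison of brain with heart or muscle, in both genotypes. Since all hearts and muscles had Arg2 at background, these tests of Arg2 rested on brain alone. A call for Arg2 could there hardly be other than higher in brain, so its part in these counts is a description.

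Nags is left out of the genotype counts here, because it was chosen by its genotype difference. Of the members counted, none passed the threshold between genotypes. In liver, 0 of 7 members tested were called by limma, as were 0.0% of 14091 genes. There, 1 of these members, Cps1, and 1653 genes (11.7%) had an unadjusted p below 0.05. The counts of members called were 0 of 5 in brain, 0 of 4 in heart, 0 of 4 in muscle, 0 of 8 in the mean of 4 tissues and 0 of 8 for a difference of the genotype effect between tissues, each again with 0.0% of genes called. At an unadjusted p below 0.05 there were 0 of these members in each of those 5 comparisons. Of all genes tested, 0.79% in brain, 1.63% in heart, 0.851% in muscle and 3.47% in the mean of 4 tissues had such a p. For a difference of the genotype effect between tissues it was 1.86%. With 3 mice against 3, an exact two-sided permutation test cannot go below 0.10.

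The lower Cps1 level in KI liver was the member difference with the smallest p among those not used for the choice. The mean level was 6.13 ± 0.11 in KI and 6.81 ± 0.25 in WT livers (SD, n = 3), a difference of -0.68 (SE 0.16, limma adjusted p = 0.358). All 3 KI livers lay below all 3 WT livers, with a gap of 0.28. Apart from Nags, this held for 1 of the 7 members tested in liver and for 7.49% of all genes tested there. The difference stayed between -0.81 and -0.57 when each mouse was left out in turn, was -0.81 under quantile normalization and -0.67 under normexp, and was not called in any of these fits. Markers of microglia and macrophages had higher mean levels in the KI than in the WT livers, which is a description with no test. The mean level of 6 of 6 such markers was 2.31 to 2.64 in KI and 1.57 to 1.88 in WT livers, while the mean of 10 hepatocyte markers was 8.63 to 8.81 in KI and 8.09 to 8.94 in WT livers, and their part in the Cps1 difference was not tested.

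The other members measured in liver differed by less than Cps1. The KI minus WT difference was -0.25 for Nags, -0.21 (SE 0.17) for Asl, -0.07 (SE 0.30) for Slc25a15, -0.05 (SE 0.22) for Arg1, -0.03 (SE 0.14) for Otc, 0.08 (SE 0.24) for Ass1 and 0.32 (SE 0.29) for Glul, and the groups overlapped for each of these except Nags. The second Otc probe, with 10 spots per array against 1 for the first, gave -0.41. Its levels of 4.21, 4.53 and 4.69 in KI livers lay below 5.03, 4.74 and 4.89 in WT livers. The 2 Otc probes thus disagree on whether the genotypes overlap. The second Ass1 probe gave -0.22 with overlap, of opposite sign to the first. Arg2, not tested in liver, had a difference of -0.83 with overlap, from values of which 5 of 6 were not well above background. The median difference over 8 members, Nags included and Arg2 not, was -0.0587 and over all genes 0.0404.

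**Figure D2:**
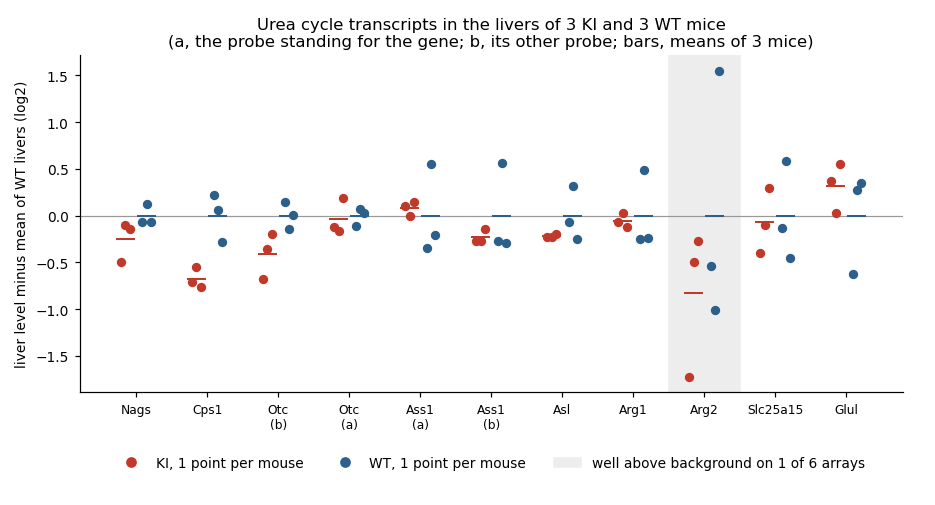
Liver level minus the mean of the 3 WT livers (log2, y axis) for each probe of the members (x axis), 1 point per mouse, KI red and WT blue, bars at means, a and b marking the 2 probes of Otc and Ass1. The KI livers lay below all WT livers for Nags, Cps1 and the b probe of Otc, and Arg2 (shaded) was well above background on 1 of 6 arrays.

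Nags was selected for its mean over tissues, which was -2.94, -3.18 and -3.16 in KI mice A, B and C and -3.85, -3.93 and -3.76 in WT mice D, E and F. That mean difference of 0.753 is the average of -0.25 (liver), 2.40 (brain), 0.07 (heart) and 0.79 (muscle). In liver, where every array was well above background, the direction was opposite to that of the mean. In brain, levels of -3.02 and -3.66 in KI mice A and C were well above background, and KI mouse B (-7.77) and WT mice D, E and F (-7.56, -7.62 and -6.46) were not. Of the 2 slides that held brains, A lay above D on one, and on the other C lay above and B below E and F. In muscle, KI mouse B (-4.25) alone was well above background, and the other 5 muscles lay between -6.44 and -6.07. In heart, KI mouse B (-3.60) and WT mouse D (-4.58) were well above background, and the sign of the difference turned under quantile normalization (-0.018) and without B (-0.538) or F (-0.033). The heart of KI mouse B was the highest of the 6 hearts for markers of several cell types, 6 of 10 hepatocyte, 5 of 6 astrocyte, 4 of 7 neuron, 4 of 5 adipocyte, 4 of 5 neutrophil and 4 of 6 macrophage markers, and their part in its Nags and Otc levels was not tested.

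Outside liver the Nags signals were small. In processed signal, Nags was 245 in the brain of KI mouse A, 111 in that of KI mouse C and 7.67 to 17.2 in the other 4 brains, against 3570 to 10400 in livers. Among muscles it was 30.1 in KI mouse B and 4.28 to 7.32 in the other 5 muscles. That muscle also stood apart for mammary markers (mean level -1.63 against -5.35 to -5.19 in the other 5 muscles), keratinocyte markers (-1.38 against -4.26 to -3.92) and erythroid markers (5.71 against 1.99 to 4.18), and it shared high neutrophil markers (3.01) with the muscle of WT mouse D (3.17). Their part in its Nags level was not tested. Under normexp, with an offset of 50 on all signals, the mean difference over tissues was 0.288.

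**Figure D3:**
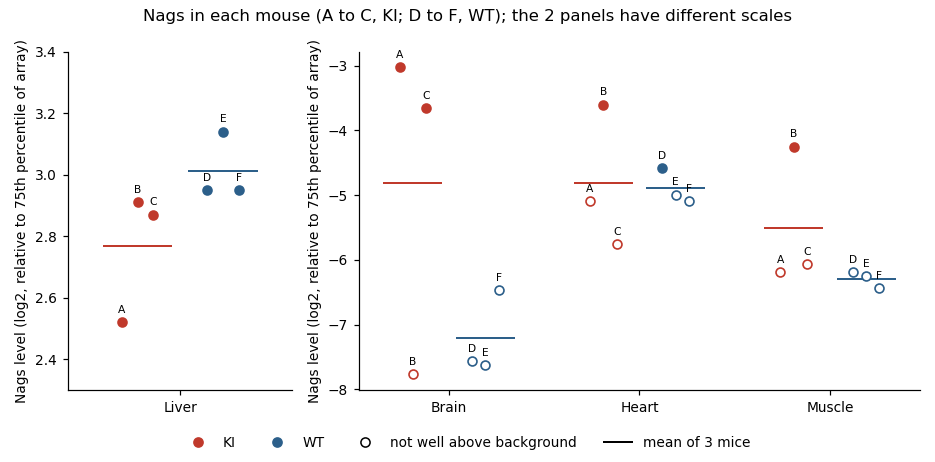
Nags level (log2, 75th percentile of each array set to 0, y axis) in liver (left panel) and in brain, heart and muscle (right panel, another scale), letters naming the mice, open points not well above background, bars at means of 3 mice. In liver the KI points, 2.52 to 2.91, lay below the WT points, and elsewhere 4 of the 9 KI points and 1 of the 9 WT points were filled.

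The brain of KI mouse C was the highest of the 6 brains for 6 of the 9 members, Cps1, Otc, Ass1, Asl, Arg1 and Slc25a15. Cps1 was at -0.34 there and at most -5.41 in the other 5 brains, Otc at 0.09 against at most -7.15, and Arg1 at 1.17 against at most -4.43. As a share of the liver signal of the same mouse, that brain held 1.20% of Cps1, 1.12% of Otc, 1.31% of Arg1, 1.09% of Nags, 2.27% of Slc25a15, 2.38% of Asl and 3.45% of Ass1. In the other 5 brains the shares were at most 0.0221% for Cps1, 0.00821% for Otc and 0.0243% for Arg1, in part from values at background. They were 1.48% to 2.60% for Slc25a15, 1.35% to 1.73% for Asl and 1.08% to 2.23% for Ass1. The 10 hepatocyte markers in the brain of KI mouse C ranged from 1.02% (Fga) to 21.0% (Ttr) of liver. Their median was 9.15%, against medians of 0.0146% to 0.0911% in the other 5 brains. The medians include Ttr and Trf, whose shares in the other brains were also high, 10.5% to 34.8% and 10.1% to 22.7%. In the brain of KI mouse C the Trf share was 15.2%. The brain of KI mouse A held 2.15% of its liver's Nags signal, the highest Nags share of the 6 brains. Cps1 (-6.28), Otc (-8.09) and Arg1 (-5.78) were at background there, and its hepatocyte marker median was 0.0146%.

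Without the brain of KI mouse C, the KI minus WT difference in brain went from 1.55 to -0.46 for Cps1, from 2.29 to -0.43 for Otc, from 2.90 to 0.80 for Arg1 and from 0.39 to -0.03 for Ass1. For Nags it went from 2.40 to 1.82, for Asl from 0.17 to -0.03, for Slc25a15 from 0.34 to 0.19, for Arg2 from 0.02 to -0.10 and for Glul from 0.03 to 0.05. No member was called in brain with or without it.

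**Figure D4:**
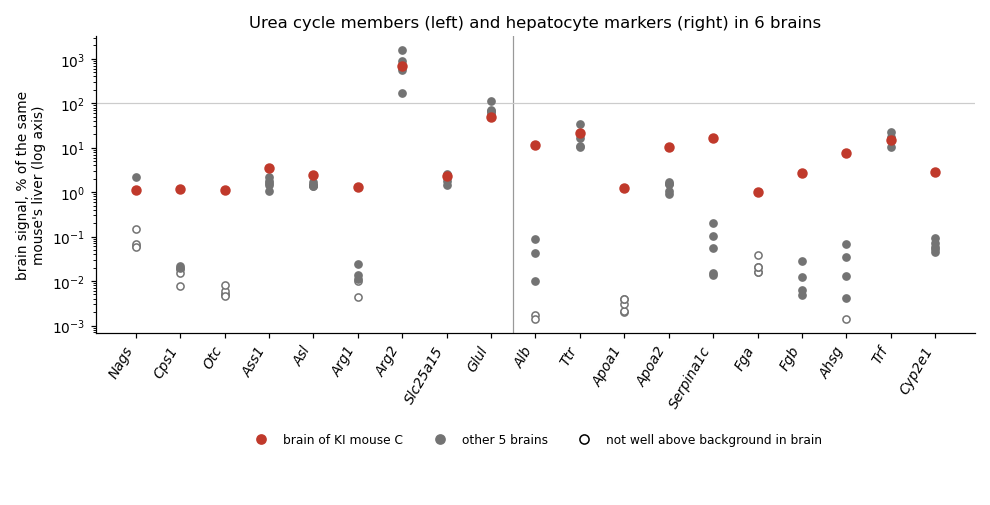
Brain signal as a percentage of the liver signal of the same mouse (y axis, log scale) for the 9 members (left of the line) and 10 hepatocyte markers (right), KI mouse C red and the other 5 mice grey, open where the brain spot was not well above background. Cps1, Otc and Arg1 lay between 1.12% and 1.31% in mouse C, above the other brains. For Arg2 5 of the 6 livers were not well above background, so its points have no exact share.

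Genes that feed, use or control the pathway were counted from 6 lists. In none of the lists, in no tissue, was a gene called between genotypes. In liver, 2 of 8 tested genes of mitochondrial supply had an unadjusted p below 0.05, both higher in KI, where 11.7% of all genes tested had such a p. These were Sirt5, the deacylase that acts on CPS1 (0.50, SE 0.20, adjusted p = 0.421), and Car5b, a mitochondrial carbonic anhydrase (0.68, SE 0.28, adjusted p = 0.422). The list median was -0.0562. Of 12 genes of glutamate, glutamine and aspartate metabolism 0 did so, and the smallest p were those of Asns, asparagine synthetase (0.54, SE 0.30), and Gpt, alanine transaminase (-0.32, SE 0.21), with a median of -0.0294. Of 10 arginine-using genes 0 did so, and the smallest p were those of Nos2, inducible nitric oxide synthase (-0.24, SE 0.11), and Gatm, which makes guanidinoacetate for creatine (0.41, SE 0.21), with a median of 0.104.

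Transporters gave 2 genes with higher and 3 with lower values in KI liver at an unadjusted p below 0.05 among 10 tested (11.7% of all genes in either direction), with a list median of -0.111. The smallest p were those of Slc38a2, a neutral amino acid transporter (-0.77, SE 0.22, adjusted p = 0.381), and Slc7a1, a cationic amino acid transporter (0.60, SE 0.19, adjusted p = 0.402). Of 11 regulators 1 was lower at that level, Cebpa (-0.38, SE 0.15, adjusted p = 0.41), followed by Cebpb (-0.43, SE 0.19, adjusted p = 0.434), both C/EBP factors, and the list median was -0.154. Of 10 genes of amino acid degradation 1 was lower, Tdo2, which opens the tryptophan ring (-0.52, SE 0.12, adjusted p = 0.358), followed by Hgd of tyrosine breakdown (-0.37, SE 0.18), and the list median was -0.297.

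Between WT liver and WT brain, 42.3% of all genes tested were higher and 37.9% lower in liver, and the lists are described beside these shares. The 10 genes of amino acid degradation were listed as liver genes, so that all 10 were higher in liver is no finding. Among them Tat, which breaks down tyrosine and was measured on all WT brains, was higher in liver by 9.66. Of 11 regulators 9 were higher and 2 lower in WT liver than in WT brain, among them Hnf4a (12.81), Cebpa (6.60) and Cebpb (4.32), all higher. Of 9 tested supply genes 4 were higher and 3 lower, with Car5a, a mitochondrial carbonic anhydrase, higher in liver by 8.22, the ornithine carrier Slc25a2 lower (difference -1.17, 1 of 3 WT livers well above background) and Slc25a13, citrin, higher by 5.96. Of 12 glutamate and glutamine genes 8 were higher and 3 lower, with Glud1, glutamate dehydrogenase, higher by 2.52 and Gls2, a glutaminase, higher by 5.04. Arginine-using genes gave 5 higher and 6 lower of 11, and transporters 8 higher and 5 lower of 14, with Slc7a1 lower (-4.42) and Slc7a2 higher by 6.64.

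The genes most like 3 members over the 24 arrays were taken by Pearson's r among 17174 genes, as a description, since the arrays share mice and slides and the r mostly follows the tissues. For Nags these were Apol9b (r = 0.978), Gstt3 (0.970) and Enpp1 (0.969). For Arg2 they were Dnah5 (0.946), Celrr (0.945) and Ttll9 (0.941), each highest in WT brain. For Glul they were Xpot (0.921), Eif1ad (0.891) and Impa1 (0.885).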

How the data were processed

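RNA from 24 samples, Cy3-labelled, went onto 24 arrays (3 slides of 8). The authors extracted the deposited intensity with Feature Extraction 12.0.3.1 (per the file headers), as a processed signal corrected for background and not normalized between arrays. The deposited score table was found to be the z-score of the log signal within each array and served as an alternative only. Of 62976 spots 59305 were not controls. Outlier spots (121 to 347 per array) were left out, none was saturated, and replicate spots were averaged. Levels are log2 of the intensity minus the 75th percentile of each array (312.5 to 2519.4). Symbols came from RefSeq accessions (GRCm38.p6 table), and the probe with the highest mean stood for a gene. A gene was tested where all 3 arrays of either compared group were well above background, using limma 3.58.1 in R 4.3.3 (two-sided, Benjamini-Hochberg over all genes, threshold 0.05), and the method was tested on simulated data. Bounds ("at least") compare the brighter mean with dim values raised to the lowest signal well above background on their array. Genotypes were compared within a tissue, tissues within a genotype. The number of arrays limits precision. The named list genes were, per list, the 2 of smallest unadjusted p in liver where no genotype call was made, and the first genes called, in list order, for tissues (at most 3, and 1 gene is not reported here). Arrays of 1 number come from 1 mouse, so numbers pair arrays across tissues (deviations over 11600 genes correlated by 0.0204 within a mouse and -0.00923 between mice of a genotype). Alternatives were other scalings, background correction, no filter, slide, replicate block and leaving out mice. Members and lists were chosen with earlier results of these data known.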

Additional observations from a re-analysis of the deposited data

How the results depend on the processing

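Of 256 alternative values over the comparisons and the Nags differences, 245 stayed within 1.5 times the count of members called or within 1 SD, and 11 did not. A comparison with 0 calls could move only if a member was newly called. Changes in which members were called, at a similar count, are not seen in these numbers. With no filter on dim probes, the members called were 5 between WT brain and heart, 5 between WT brain and muscle and 4 between WT heart and muscle. These counts include members at background. With the slide as a term, 2 members were called between KI brain and muscle and 1 between KI heart and muscle. Leaving out 1 mouse at a time gave 0 to 1 members whose genotype effect differed between tissues (the 1, without KI mouse B, was Nags, which was chosen for its genotype difference, so this is no test), 3 to 5 between WT brain and heart and 3 to 5 between WT brain and muscle (5 without WT mouse E), and 1 to 2 between KI heart and muscle against 3 with all mice (1 without KI mouse A or B). The mean Nags difference was 0.2878 under normexp. The cause was not tested. With the mouse as a replicate block, 8 members were called between WT liver and brain and 0 in each genotype comparison, and the block moved no count by over 1.5 times. The brain of KI mouse C was left out as an alternative chosen after the data were seen, and gave 9 calls between KI liver and brain and 0 between genotypes in brain. With the slide as a block, 0 members were called between genotypes in brain and in heart. Another Nags probe could not be tried. Signals near background limit the values of Nags, Cps1, Otc, Arg1 and Arg2 outside the tissues where they were measured.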

Other observations

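Zonation markers of liver were set beside the members, because Cps1 and the other cycle enzymes belong to periportal and Glul to pericentral hepatocytes. Of 7 periportal markers 0 and of 8 pericentral markers 1, Cyp1a2, had an unadjusted p below 0.05 between genotypes in liver. Cyp1a2, a cytochrome P450, had a level of 4.74 ± 0.07 in KI and 5.18 ± 0.11 in WT livers (SD, n = 3), a difference of -0.44 (SE 0.12, limma adjusted p = 0.375). The median differences were -0.0727 for the periportal and 0.112 for the pericentral list. In the liver of KI mouse C, skeletal muscle fibre markers had a mean level of 0.59 against -5.88 to -4.93 in the other 5 livers.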
